A study of Mus musculus with 8 samples.

Results

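The genes described here are 55 named genes of the cell division cycle, 22 that act in DNA replication and 33 that act in mitosis or its control, followed across 4 mouse keratinocyte lines. Members were taken by symbol from array rows annotated to exactly 1 gene, using the row with the highest mean where a gene had several. Such a row was found for 50 of the 55, which are 20 replication genes and 30 mitotic genes, among 14860 genes and 23332 transcript clusters on the array. Pcna, Rrm2, Ccnb1, Cenpf and Foxm1 had no row of their own under that rule and are not analysed here. No filter on low values was applied, so all 50 were tested. Plk1 was the member with a second row, which was dim, with intensities of 57.0 to 93.6.

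All 4 lines derive from MK546, keratinocytes from neonatal mice without the integrin subunit α3, immortalized with SV40 large T antigen. The null line carried no added subunit, the α3 line human α3 by stable transfection, the α9 line human α9 by retroviral transduction, and the α3α9 line both. Every line was cultured at 33 °C with 8% CO2 on denatured collagen, in low-calcium medium (0.05 mM) with 4% serum, hydrocortisone, insulin, 10 ng/ml EGF and 10 units/ml interferon-γ. Each line was read on 2 Affymetrix Mouse Exon 1.0 ST arrays, and the labels do not say whether a line is 1 clone. They call the arrays biological replicates without naming separate cultures, so the p-values rest on differences among these arrays that may be technical. The titles mark the null and α3 arrays, and not the α9 and α3α9 arrays, as a re-analysis, so a difference of α9 from null, or of α3α9 from α3, cannot be told apart from a difference between these array sets. The differences with α3 lie within 1 set each, but a change of that difference with α9 cannot be told apart from the sets. Each condition is 1 line, so in every comparison a subunit's effect cannot be told apart from other differences between the lines.

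Cells copy their DNA in S phase and divide it in mitosis, and the genes for these steps are transcribed in successive waves. Replication genes such as those of the MCM helicase are largely driven by E2F factors once the retinoblastoma proteins release them. Mitotic genes come later and depend on the MuvB complex with B-Myb and FOXM1, which acts through a promoter element called CHR, often together with CCAAT boxes. SV40 large T antigen binds the retinoblastoma proteins and p53, and every line here carries it, the null line included.

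Promoter sequences show how the 2 classes differ apart from any array value. In RefSeq windows of 300 bases around gene starts (GRCm38.p6), 42 members were matched with 47 windows, and 3 motifs were searched on both strands. The E2F letters TTTNNCGC were found in 11 of 20 replication windows (55%) and 1 of 27 mitotic windows (3.70%), against 5.17% of all 32851 windows. The CHR letters TTTGAA were found in 3 of 20 replication windows (15%) and 20 of 27 mitotic windows (74.1%), against 17.9% of all windows. A CCAAT box was found in 14 of 20 (70.0%) and 21 of 27 (77.8%), against 37.4% of all windows. CHR and a CCAAT box occurred together in 15% of replication and 66.7% of mitotic windows, against 6.95% of all. A match is a description of letters in the window and was not tested as a binding site.

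The 250 bases before the start are printed for the replication member that passed the test with α3 in the presence of α9, Mcm5 (chr8:75109259-75109508, plus strand), and for the 2 mitotic members with the largest falls there, Mki67 (chr7:135716380-135716629, minus strand) and Ttk (chr9:83834439-83834688, plus strand). They are RefSeq sequences read 5′ to 3′ on the gene's strand, with capitals marking E2F, CHR and CCAAT letters on either strand.
Mcm5 promoter: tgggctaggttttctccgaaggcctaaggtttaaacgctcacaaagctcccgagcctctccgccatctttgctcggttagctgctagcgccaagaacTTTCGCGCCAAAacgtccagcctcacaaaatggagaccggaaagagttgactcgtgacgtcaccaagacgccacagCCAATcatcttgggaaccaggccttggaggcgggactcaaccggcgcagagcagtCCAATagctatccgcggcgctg
Mki67 promoter: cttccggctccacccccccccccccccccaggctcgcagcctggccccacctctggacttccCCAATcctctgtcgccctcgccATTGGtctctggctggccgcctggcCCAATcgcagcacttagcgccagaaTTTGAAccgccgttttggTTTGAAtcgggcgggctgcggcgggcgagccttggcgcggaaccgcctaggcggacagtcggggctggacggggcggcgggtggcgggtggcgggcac
Ttk promoter: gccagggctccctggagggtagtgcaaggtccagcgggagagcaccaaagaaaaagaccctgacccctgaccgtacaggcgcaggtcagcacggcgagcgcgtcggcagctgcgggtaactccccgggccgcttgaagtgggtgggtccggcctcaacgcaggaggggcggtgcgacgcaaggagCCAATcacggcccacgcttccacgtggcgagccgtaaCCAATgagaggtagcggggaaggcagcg
In Mcm5 the capital run that starts 153 bases before the start holds overlapping E2F letters on both strands, and CCAAT boxes begin 77 and 22 bases before the start. In Mki67, 2 CHR elements begin 116 and 98 bases before the start, downstream of 3 CCAAT boxes, of which 1 is reversed. Ttk has CCAAT boxes 65 and 28 bases before the start, and its CHR letters lie on the opposite strand just after the start, outside the printed stretch.

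Values are the deposited linear intensities, and differences are in log2(intensity + 16) with their SE. Array medians over all clusters ran from 82.8 to 127 and both ends of that range belonged to the α3α9 line, whose residual SD was 0.42 on the deposited scale against 0.21 to 0.27 in the other lines. After quantile normalization, which gives every array the same distribution, these SDs were 0.26 and 0.21, and counts are given on both scales because they differed. Intensities, and statements on which arrays or lines overlap, are on the deposited scale unless the quantile scale is named. The keratinocyte keratins Krt5 (13264 to 14926) and Krt14 (11005 to 12893) were high on all 8 arrays. Of the 24 measured marker genes of fibroblasts, melanocytes, leukocytes and endothelium, 2 passed the test in any comparison on the deposited scale, Cd68 and Flt1. The leukocyte markers summed to 531 to 686 in the null line, 693 to 698 with α3, 1069 to 1259 with α9 and 724 to 991 with both, and the endothelial markers to 193 to 204, 221 to 264, 212 to 247 and 283 to 379. Between α9 and null, Cd68 differed by 1.11, against a median of 0.25 over the leukocyte markers. Between α3α9 and α9, Flt1 differed by 1.23, against a median of -0.002 over the endothelial markers. No marker was at 0, the dimmest at 11.3, and the part of these markers in the results below was not tested.

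Mitotic genes were lowest in the α3α9 line. That line held the lowest of the 4 line means for 29 of 30 mitotic members, Cdc25b being the exception, and for 10 of 20 replication members, against 17.1% of all clusters. The highest mean lay in the null line for 17 mitotic members, in the α9 line for 8 and in the α3 line for 5, against 12.5%, 41.0% and 20.4% of all clusters. These counts were 25, 1 and 4 on the quantile scale. There the α3α9 line held the lowest mean for 29 of 30 mitotic and 13 of 20 replication members. The shares of all clusters were not computed on that scale. In such bulk RNA, fewer cells in S phase or mitosis and less of these transcripts per cell cannot be told apart. Relative to the null mean, the median mitotic member was at -1.31 and -0.98 (log2) on the α3α9 arrays, where the median of all clusters was at -0.09 and 0.32. On the α3 arrays the mitotic medians were -0.07 and -0.31, and on the α9 arrays -0.16 and -0.35. The replication medians on the α3α9 arrays were -0.82 and -0.42, nearer to 0 than the mitotic medians of the same arrays.

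**Figure D1:**
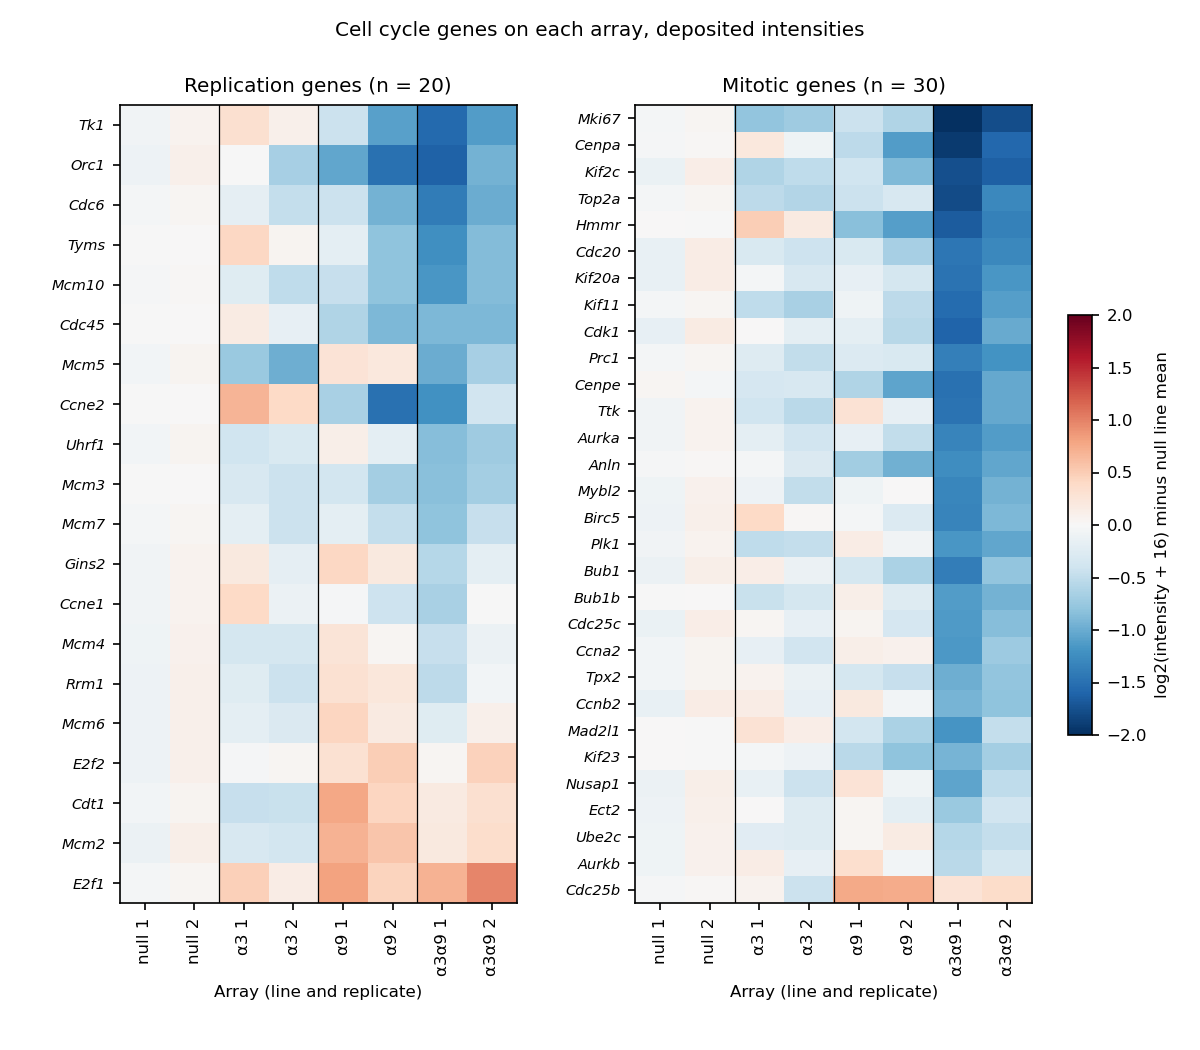
Level of each of the 50 member genes on each of the 8 arrays, as the difference of log2(intensity + 16) from the mean of the null line (colour), with replication and mitotic genes in separate blocks. Mitotic genes are below the null mean on both α3α9 arrays for nearly the whole block. Of 20 replication genes, 16 and 15 are below it on α3α9 replicates 1 and 2.

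**Figure D2:**
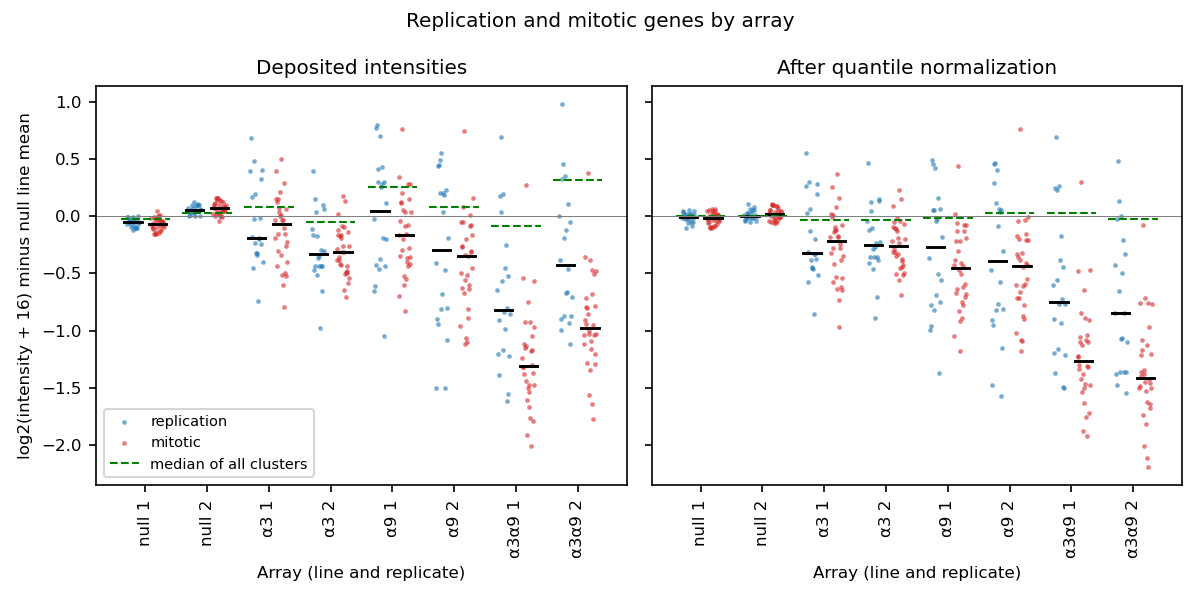
Each of the 20 replication (blue) and 30 mitotic (red) members as a point on each array, as the difference of log2(intensity + 16) from the null mean (y axis), on the deposited scale and after quantile normalization, with black bars for the medians and dashed green lines for the median of all 23332 clusters. The α3α9 arrays have the lowest mitotic medians, -1.31 and -0.98 on the deposited scale and -1.27 and -1.41 after quantile normalization.

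The α3α9 line was compared with the α9 line, the lines with α9 that differ by added α3. Of 30 mitotic members 9 fell, and of 20 replication members 1 fell, Mcm5, while none rose (limma, adjusted p under 0.05). Of all clusters 0.823% were called lower and 1.05% higher. The fit pooled the spread of the 4 lines. With only the 2 compared lines fitted, 2 mitotic and 0 replication members fell, where 200 of 23332 clusters were called lower. After quantile normalization 23 mitotic and 7 replication members fell, and again none rose, against 4.29% of all clusters lower and 5.67% higher. The median difference was -0.91 over the mitotic members, -0.36 over the replication members and -0.06 over all clusters. All 30 mitotic members had a difference below 0, against 59.2% of all clusters. On the quantile scale the arrays of the 2 lines did not overlap, α3α9 lower, for 29 of the 30, Mad2l1 being the exception, against 24.4% of all clusters. The deposited-scale count of 10 rose without α3α9 replicate 2 and fell without any 1 of the other arrays. The number of all clusters called lower rose and fell in the same cases. The quantile-scale count of 30 was 16 without either α9 array, 21 to 24 without another array, and 9 when only the 2 compared lines were fitted.

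Mki67, the Ki-67 protein that coats mitotic chromosomes and marks cycling cells, had intensities of 511 and 544 on the null arrays, 298 and 317 on the α3 arrays, 386 and 342 on the α9 arrays and 119 and 143 on the α3α9 arrays. The arrays of the 4 lines did not overlap, with α3α9 lowest and null highest. Its difference between α3α9 and α9 was -1.38 ± 0.20 (adjusted p = 0.0068), the largest fall among the members. Top2a, the topoisomerase that untangles sister chromatids, read 3299 and 3506 on the null arrays, 2358 and 2259 on the α3 arrays, 2534 and 2729 on the α9 arrays and 973 and 1382 on the α3α9 arrays. It had the same order of lines and fell by 1.17 ± 0.22 (adjusted p = 0.028).

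Among the mitotic kinases, Plk1, which acts from mitotic entry to cytokinesis, read 2545 and 2798 on the null arrays, 1882 and 1913 on the α3 arrays, 2970.2 and 2533 on the α9 arrays and 1180.5 and 1289 on the α3α9 arrays. The α9 and null arrays overlapped, and both α3α9 arrays lay below all others. Its difference was -1.14 ± 0.20 (adjusted p = 0.018). Ttk, the spindle checkpoint kinase Mps1, read 684 and 763 on the null arrays, 542 and 490.3 on the α3 arrays, 881 and 641 on the α9 arrays and 249 and 346 on the α3α9 arrays. Its difference was -1.31 ± 0.24 (adjusted p = 0.024), and as for Plk1 the null and α9 arrays overlapped. Plk1's dim second row differed by -0.15 and did not pass.

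Ccna2, the cyclin of S phase and G2, read 3207 and 3484 on the null arrays, 2988 and 2560.0 on the α3 arrays, 3619 and 3541 on the α9 arrays and 1493 and 2024 on the α3α9 arrays. It fell by 1.04 ± 0.22 (adjusted p = 0.045), and the α9 line held its highest arrays. Mybl2, the B-Myb partner of MuvB, read 664 and 755 on the null arrays, 657 and 501 on the α3 arrays, 669 and 713 on the α9 arrays and 278 and 359 on the α3α9 arrays. It fell by 1.09 ± 0.22 (adjusted p = 0.041). For both genes the α3α9 arrays were below every other array.

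3 members of the spindle and division machinery also fell. Prc1, which bundles microtubules of the central spindle, read 2152 and 2289.6 on the null arrays, 1852 and 1565 on the α3 arrays, 1831 and 1797 on the α9 arrays and 849 and 956 on the α3α9 arrays, a difference of -0.997 ± 0.20 (adjusted p = 0.035). Kif20a, a kinesin needed for cytokinesis, read 1516 and 1856, 1639.7 and 1345, 1503 and 1311, and 591 and 741 in the same order of lines, a difference of -1.07 ± 0.22 (adjusted p = 0.045). The α3α9 arrays of both genes lay below all other arrays. Kif2c, a kinesin that takes apart microtubules at centromeres, read 782 and 941 on the null arrays, 559 and 599 on the α3 arrays, 644 and 456 on the α9 arrays and 241 and 265 on the α3α9 arrays, a difference of -1.05 ± 0.23 that passed only narrowly (adjusted p = 0.050). Kif23, another cytokinesis kinesin, had the difference nearest to 0 among mitotic members, at -0.13 ± 0.20.

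Mcm5, a subunit of the MCM2-7 helicase that unwinds DNA, read 2138 and 2284 on the null arrays, 1314 and 1111 on the α3 arrays, 2687 and 2549.8 on the α9 arrays and 1105 and 1391 on the α3α9 arrays. Both lines with α3 were low and both lines without it high, with no overlap between those pairs of lines. Its difference between α3α9 and α9 was -1.07 ± 0.21 (adjusted p = 0.033). The other 5 measured subunits of the helicase did not pass on either scale in this comparison. Mcm2 differed by -0.35 ± 0.20, Mcm3 by -0.23 ± 0.20, Mcm4 by -0.44 ± 0.21, Mcm6 by -0.38 ± 0.22 and Mcm7 by -0.30 ± 0.22. All 5 differences had the sign of Mcm5 and were under 0.5 in size. The replication members that passed only after quantile normalization were Cdc6, which loads the helicase, Gins2 and Mcm10, which act in its activation, the nucleotide enzymes Rrm1 and Tyms, and Uhrf1, which maintains DNA methylation, with differences of -0.44 to -0.69 on that scale.

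**Figure D3:**
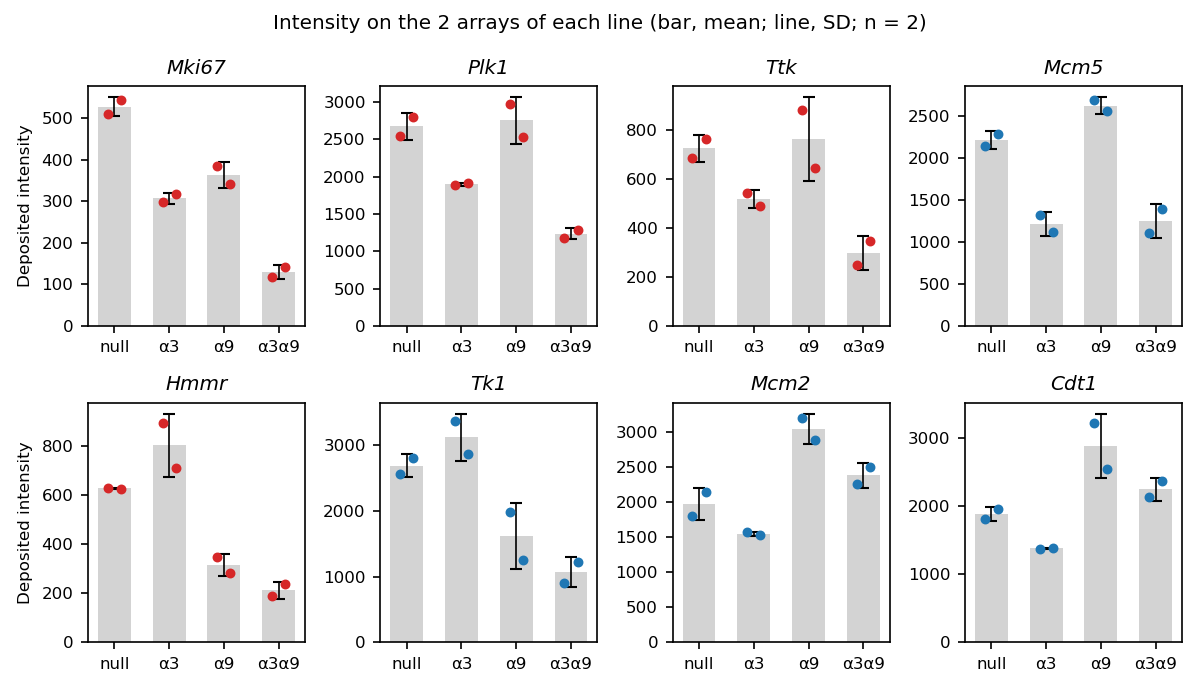
Deposited intensity (linear y axis from 0) of 8 member genes in the 4 lines, with points for the 2 arrays (red for mitotic, blue for replication genes), bars for their mean and lines for the SD (n = 2). Mki67, Plk1, Ttk, Hmmr and Tk1 are lowest on the α3α9 arrays, Mcm5 is low on all 4 arrays with α3, and Mcm2 and Cdt1 are highest on the α9 arrays.

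The α3 line was compared with the null line, the lines without α9 that differ by added α3. On the deposited scale 0 of 50 members passed in limma in either direction (0.351% of all clusters were called lower and 0.947% higher), and 6 had an unadjusted p under 0.05, near the 10.6% of all clusters that did. After quantile normalization 1 replication member and 4 mitotic members fell and none rose, against 3.75% of all clusters called lower and 4.46% higher. The count of 5 on that scale was 1 whichever of the 4 compared arrays was left out, and 2 when the 2 lines were fitted alone. The median difference was -0.32 over replication members, -0.21 over mitotic members and 0.01 over all clusters. Below 0 were 12 of 20 replication and 25 of 30 mitotic members, against 48.1% of all clusters.

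Mcm5 had the lowest difference of all members in this comparison, -0.86 ± 0.21 on the deposited scale (adjusted p = 0.10), and passed after quantile normalization at -0.87 ± 0.10 (adjusted p = 0.0050). Mki67 followed at -0.75 ± 0.20 (adjusted p = 0.14) and passed on the quantile scale at -0.83 ± 0.15 (adjusted p = 0.023). Top2a, Ttk and Kif11, a kinesin that separates spindle poles, also passed only on that scale, at -0.58 ± 0.12, -0.52 ± 0.10 and -0.59 ± 0.11. For all 5 genes the null and α3 arrays did not overlap, α3 lower, as for 23.5% of all clusters. At the other end were Ccne2, a cyclin E that starts S phase, at 0.54 ± 0.33, and Hmmr, a spindle-associated hyaluronan-binding protein, at 0.34 ± 0.22, neither of which passed on either scale. Ccne1, the other cyclin E, differed by 0.14 ± 0.28. Cdk1, the kinase that drives entry into mitosis, differed by -0.10 ± 0.26, with arrays of 2967 and 3696 against 3318 and 2890.1.

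Whether the α3 difference changed between lines with and without α9 was tested as an interaction, the 2 comparisons sharing no array. The 2 comparisons lie in different array sets, so a change with α9 cannot be told apart from a difference between these sets. On the deposited scale 0 of 50 members passed in limma (0.0729% of all clusters were called lower and 0.0129% higher), and 12 members, all mitotic, had an unadjusted p under 0.05, against 5.70% of all clusters. The interaction was below 0 for 30 of 30 mitotic and 16 of 20 replication members, against 58.6% of all clusters. Its median was -0.60 over mitotic members, -0.15 over replication members and -0.06 over all clusters. After quantile normalization these medians were -0.55, -0.07 and 0.03, and 1 member passed, Birc5, against 0.429% of all clusters called lower and 0.309% higher. Birc5, survivin, a chromosomal passenger protein, read 1132 and 1317 on the null arrays, 1613 and 1236 on the α3 arrays, 1183 and 1011 on the α9 arrays and 481 and 645 on the α3α9 arrays. The null arrays overlapped those of the α3 and the α9 line, and the α3α9 arrays were apart and lowest. No 2 lines overlapped on the quantile scale, α3 being highest and α3α9 lowest. Its interaction was -1.16 ± 0.33 on the deposited scale (adjusted p = 0.51) and -1.14 ± 0.15 on the quantile scale (adjusted p = 0.033), and that call was lost whichever of the 8 arrays was left out.

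**Figure D4:**
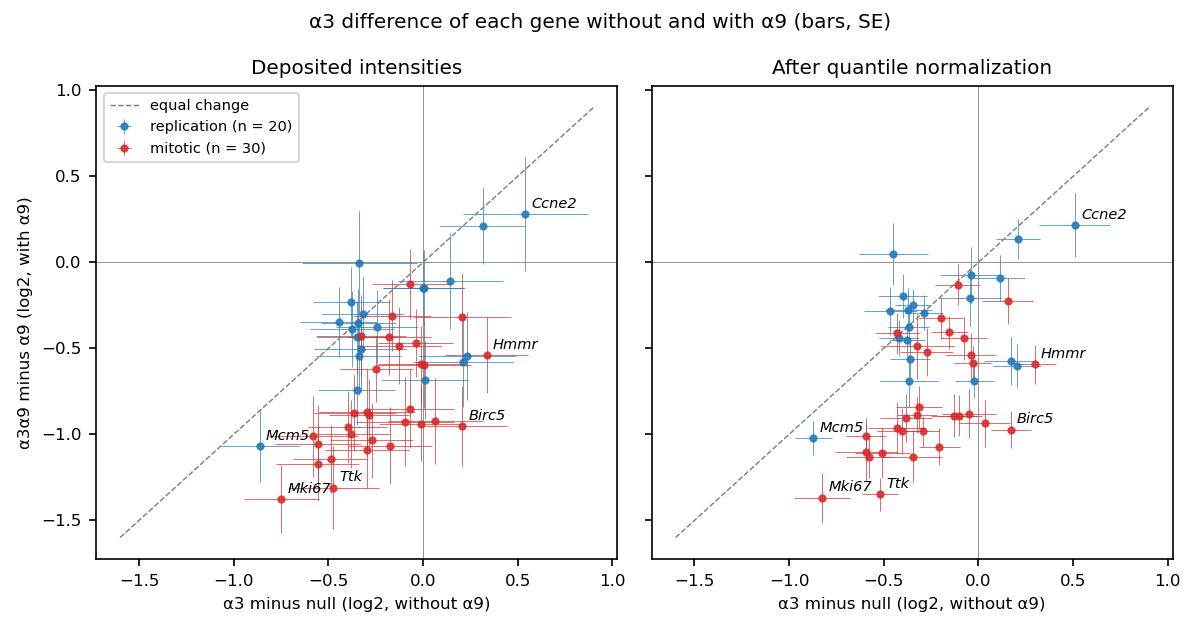
Difference with α3 in lines without α9 (x axis, α3 minus null) and with α9 (y axis, α3α9 minus α9), in log2(intensity + 16). The deposited scale and values after quantile normalization are shown, 1 point per member gene, with SE bars and a dashed line of equal change. Below that line lie 30 of 30 mitotic genes (red) on the deposited scale and 29 after quantile normalization, against 58.6% and 45.8% of all clusters. Replication genes (blue) lie nearer to it, with deposited-scale medians of -0.32 on x and -0.36 on y against -0.21 and -0.91 for mitotic genes.

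The α9 line was compared with the null line, the lines without α3 that differ by added α9, a comparison confounded with the array sets. On the deposited scale 1 replication and 1 mitotic member fell, Orc1 and Hmmr, and none rose, against 0.823% of all clusters called lower and 3.50% called higher. After quantile normalization 9 replication and 17 mitotic members fell and 1 rose, E2f1, against 8.30% and 8.84% of all clusters. The median of all clusters was 0.16 on the deposited scale and 0.00 after quantile normalization, and the medians were -0.13 and -0.33 over replication members and -0.30 and -0.51 over mitotic members. The deposited count of 2 fell whichever null, α3 or α9 array was left out and rose without either α3α9 array. The numbers of all clusters called lower and higher fell and rose in the same cases. The quantile count of 26 was 10 without either null array, 17 and 12 without α9 replicates 1 and 2, and 23 or 26 otherwise, and E2f1 no longer passed whichever null, α3 or α9 array was left out.

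Orc1, the largest subunit of the origin recognition complex, read 269 and 312 on the null arrays, 286 and 178 on the α3 arrays, 132 and 92.2 on the α9 arrays and 83.7 and 143 on the α3α9 arrays. Both lines with α9 were low, and they overlapped each other. Its difference between α9 and null was -1.27 ± 0.30 (adjusted p = 0.047). Hmmr read 629 and 626 on the null arrays, 891 and 710.2 on the α3 arrays, 346 and 283 on the α9 arrays and 187 and 237 on the α3α9 arrays. No 2 lines overlapped for Hmmr, α3 being highest and α3α9 lowest, and its difference between α9 and null was -0.97 ± 0.22 (adjusted p = 0.040). Ccne2 passed only on the quantile scale, at -1.24 ± 0.19 (adjusted p = 0.0078), with intensities of 907 and 913 on the null arrays, 1472 and 1203 on the α3 arrays, 572 and 312 on the α9 arrays and 385 and 695 on the α3α9 arrays.

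Some replication genes had values above the null line in this comparison, none passing on the deposited scale. Cdt1, the licensing factor that brings the helicase to origins, read 1812 and 1958 on the null arrays, 1371 and 1386 on the α3 arrays, 3214 and 2550.4 on the α9 arrays and 2130.4 and 2366 on the α3α9 arrays. Mcm2 read 1809 and 2139 on the null arrays, 1572 and 1526 on the α3 arrays, 3196 and 2889.6 on the α9 arrays and 2255 and 2509 on the α3α9 arrays. For both genes all 4 arrays with α9 were above all 4 without it on the deposited scale, whereas on the quantile scale α3α9 replicate 2 lay below at least 1 null array. E2f1, a transcription factor of S phase entry, read 193 and 205, 283 and 223, 358 and 277, and 332 and 407 in the same order of lines. Between α9 and null they differed by 0.60 ± 0.20 for Cdt1, 0.62 ± 0.20 for Mcm2 and 0.62 ± 0.22 for E2f1 (adjusted p = 0.13, 0.11 and 0.16), and E2f1 rose on the quantile scale, at 0.45 ± 0.11 (adjusted p = 0.041). Among helicase subunits, Mcm3 and Mcm7 fell on the quantile scale, at -0.73 ± 0.13 and -0.54 ± 0.09, and the other 4 subunits did not pass on either scale.

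The remaining helicase subunits had smaller ranges across the lines. Mcm3 read 2249 and 2261 on the null arrays, 1802 and 1664 on the α3 arrays, 1736 and 1398 on the α9 arrays and 1255 and 1405 on the α3α9 arrays. Mcm7 read 2264 and 2405, 2030.3 and 1726, 2042 and 1680.5, and 1334 and 1684 in the same order. Both were highest in the null line. Mcm4 read 1991 and 2243 on the null arrays, 1661 and 1652 on the α3 arrays, 2529.9 and 2168 on the α9 arrays and 1536 and 1939 on the α3α9 arrays. Mcm6 read 2447 and 2818, 2295 and 2137, 3533 and 2988, and 2207 and 2830.3 in the same order, with the highest line mean in the α9 line as for Mcm4. Neither Mcm4 nor Mcm6 passed in any comparison on either scale.

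The α3α9 line was compared with the α3 line, the lines with α3 that differ by added α9. This comparison was again confounded with the array sets and shared its α3α9 arrays with the comparison against the α9 line. On the deposited scale 13 of 30 mitotic and 2 of 20 replication members fell and none rose, against 1.14% of all clusters called lower and 2.14% called higher. After quantile normalization 28 mitotic and 12 replication members fell and 2 replication members rose, Mcm2 and Cdt1, against 8.75% and 10.1%. The median difference was -0.92 over mitotic members, -0.38 over replication members and 0.10 over all clusters. More of all clusters were called lower without α3α9 replicate 2 or either α9 array, and fewer without any other array. The deposited count of 15 rose without α3α9 replicate 2 and fell without any 1 other array. On the quantile scale it was 27 to 38 without 1 array, and the 2 rises were 0 without either null or α3 array or α3α9 replicate 1, 1 without either α9 array and 2 without α3α9 replicate 2.

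Hmmr had the largest fall, by 1.84 ± 0.22 (adjusted p = 0.0030). Cenpa, the histone that marks centromeres, read 2496 and 2595 on the null arrays, 2954 and 2401 on the α3 arrays, 1769 and 1167 on the α9 arrays and 663 and 848 on the α3α9 arrays. Its difference was -1.81 ± 0.25 (adjusted p = 0.0062), with the lines without α9 overlapping each other and lying above both lines with it. Birc5 fell by 1.32 ± 0.24 (adjusted p = 0.020). Cdk1 read 2967 and 3696 on the null arrays, 3318 and 2890.1 on the α3 arrays, 2885 and 2248 on the α9 arrays and 1078 and 1645 on the α3α9 arrays, and fell by 1.21 ± 0.26 (adjusted p = 0.038). Its null and α3 arrays overlapped, and the α3α9 arrays were below the rest.

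Genes of checkpoint control and exit from mitosis were among those that fell. Bub1, a kinetochore checkpoint kinase, read 2009 and 2350.1 on the null arrays, 2372 and 2001 on the α3 arrays, 1705 and 1401 on the α9 arrays and 825 and 1249.6 on the α3α9 arrays, a difference of -1.09 ± 0.25 (adjusted p = 0.046). Cdc20, which activates the anaphase-promoting complex, read 1153 and 1436, 1038 and 957, 1042 and 802, and 464 and 519.7 in the same order, a difference of -0.998 ± 0.22 (adjusted p = 0.042). Both were lowest on the 2 α3α9 arrays. Aurka, a centrosomal mitotic kinase, read 3659.9 and 4026 on the null arrays, 3351 and 2946 on the α3 arrays, 3418 and 2721 on the α9 arrays and 1533 and 1759 on the α3α9 arrays, and fell by 0.93 ± 0.21 (adjusted p = 0.046). Anln, an actin-binding protein of the cleavage furrow, read 1739.9 and 1782, 1715 and 1437, 1077 and 898, and 735 and 849 in the same order, and fell by 0.98 ± 0.21 (adjusted p = 0.037). For Anln both lines with α9 were below both lines without it, while for Aurka the α9 and α3 arrays overlapped. Mki67, Top2a, Prc1, Kif20a and Kif2c fell here too, by 1.14, 0.98, 0.91, 1.15 and 1.15.

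The 2 replication members that fell make thymidine nucleotides. Tk1, thymidine kinase, read 2568 and 2811 on the null arrays, 3374 and 2869 on the α3 arrays, 1980.0 and 1260.4 on the α9 arrays and 904 and 1226 on the α3α9 arrays, a difference of -1.55 ± 0.26 (adjusted p = 0.016). Tyms, thymidylate synthase, read 767 and 768, 1023 and 801, 665 and 433, and 320.2 and 413 in the same order, a difference of -1.28 ± 0.26 (adjusted p = 0.030). Both were highest with α3 alone and lowest with both subunits. Ccne2 missed the threshold at -1.34 ± 0.33 (adjusted p = 0.059) and passed on the quantile scale. Ccne1 read 1313 and 1442 on the null arrays, 1818 and 1272 on the α3 arrays, 1354 and 1034 on the α9 arrays and 876 and 1373 on the α3α9 arrays, with all 4 lines overlapping, and differed by -0.47 ± 0.28. On the quantile scale its α3α9 and α3 arrays did not overlap and it fell by 0.63 ± 0.13 (adjusted p = 0.022). Mcm5 differed by 0.04 ± 0.21, against 0.61 ± 0.20 for Mcm2 and 0.70 ± 0.20 for Cdt1 (adjusted p = 0.12 and 0.093). On the quantile scale Mcm2 and Cdt1 rose by 0.51 ± 0.13 and 0.57 ± 0.14 (adjusted p = 0.035 and 0.034), and Cdc25b, the phosphatase whose lowest mean lay in the α3 line, differed by 0.43 ± 0.19 and did not pass.

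Further genes of the same processes were taken from lists outside the members, with calls read against the shares of all clusters given above. Of 51 other measured mitotic genes, 5 fell and 1 rose between α3α9 and α9 (limma, deposited scale, against 0.823% and 1.05% of all clusters), and 34 fell and 2 rose on the quantile scale (against 4.29% and 5.67%). The median was -0.62, and the deposited-scale falls included the kinase Nek2 (-1.12), the cohesion factor Cdca5 (-1.12) and the chromosomal passenger Cdca8 (-1.10), while the rise was Ckap2 (1.69), a spindle protein. Between α3α9 and α3, 14 fell and none rose on the deposited scale (against 1.14% and 2.14%), and 45 fell and 1 rose on the quantile scale (against 8.75% and 10.1%). The median was -0.72, and the deposited-scale falls were led by the kinetochore gene Nuf2 (-1.77), the kinesin Kif18a (-1.67), Cdkn3 (-1.47) and Pbk (-1.45). Between α9 and null 1 fell, Nuf2 (-0.92), on the deposited scale (against 0.823%), and 28 fell and 1 rose on the quantile scale (against 8.30% and 8.84%). Between α3 and null 1 rose, Shcbp1 (1.57), on the deposited scale (against 0.947%), and 6 fell and 3 rose on the quantile scale (against 3.75% and 4.46%).

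Of 42 other measured replication genes none passed in limma with α3 on the deposited scale. In null and in α9 cells alike 5 had an unadjusted p under 0.05, near the 10.6% and 11.6% of all clusters. On the quantile scale 2 fell and 1 rose in null cells (against 3.75% and 4.46% of all clusters). In α9 cells 5 fell and 2 rose on that scale (against 4.29% and 5.67%). With α9, 2 fell in null cells on the deposited scale, against 0.823% of all clusters. They were Dscc1 (-1.53), which helps load the sliding clamp, and Gmnn (-1.43), which restrains Cdt1. On the quantile scale 18 fell and 1 rose (against 8.30% and 8.84%). In α3 cells 3 fell with α9 (against 1.14%), Dscc1 (-1.90), Gmnn (-1.69) and the histone chaperone Asf1b (-1.04). On the quantile scale 20 fell and 1 rose there (against 8.75% and 10.1%). Of 11 measured drivers of the G1 phase, such as the D cyclins, none passed in limma in any comparison on the deposited scale. An unadjusted p under 0.05 was found for 2 in α3 minus null and 4 in α3α9 minus α9. The shares of all clusters were 10.6% and 11.6%. It was found for 3 in α9 minus null, 2 in α3α9 minus α3 and 0 in the interaction (against 20.1%, 19.9% and 5.70%). Among these drivers 2 fell and none rose on the quantile scale for α3 minus null (against 3.75% and 4.46% of all clusters). For α3α9 minus α9, 2 fell and 2 rose (against 4.29% and 5.67%). The same counts held for α3α9 minus α3 (against 8.75% and 10.1%). For α9 minus null 3 fell and 1 rose (against 8.30% and 8.84%).

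Among 21 measured genes that brake the cycle, 3 rose with α9 in null cells on the deposited scale (against 3.50% of all clusters), and 6 rose and 3 fell on the quantile scale (against 8.84% and 8.30%). With α3 in α9 cells 2 fell and 1 rose on the deposited scale (against 0.823% and 1.05%), and 5 fell and 4 rose on the quantile scale (against 4.29% and 5.67%). With α3 in null cells none passed on the deposited scale, where 5 had an unadjusted p under 0.05 (against 10.6% of all clusters). On the quantile scale 4 rose and 4 fell (against 4.46% and 3.75%). With α9 in α3 cells none passed on the deposited scale, where 5 had an unadjusted p under 0.05 (against 19.9%). On the quantile scale 4 rose and 1 fell there (against 10.1% and 8.75%). Cdkn1b, the CDK inhibitor p27, read 1056 and 952 on the null arrays, 1019.8 and 782 on the α3 arrays, 2105 and 1956 on the α9 arrays and 812 and 945 on the α3α9 arrays. It was highest on the α9 arrays, the other arrays lying between 782 and 1056, and differed by 1.01 ± 0.21 between α9 and null (adjusted p = 0.031) and by -1.20 ± 0.21 between α3α9 and α9 (adjusted p = 0.021). Ccng2, a cyclin G linked to arrest, read 286 and 287, 492 and 381, 1045 and 812, and 196 and 323 in the same order. It rose by 1.63 ± 0.27 (adjusted p = 0.012) and fell by 1.80 ± 0.27 (adjusted p = 0.0078), and its interaction was -2.37 ± 0.38 (adjusted p = 0.078), which passed on the quantile scale at -2.33 ± 0.16 (adjusted p = 0.0068). Cdkn2a, which encodes p16 and ARF, rose between α9 and null by 0.96 ± 0.23 (adjusted p = 0.048), and Btg2, an antiproliferative p53 target, rose between α3α9 and α9 by 1.15 ± 0.23 (adjusted p = 0.035). Keratinocyte markers were also lower with α3. In α9 cells 8 of 8 were lower (against 59.2% of all clusters), with a median of -0.43. Their sums were 52546 to 52732 in the α9 line and 40936 to 44797 in the α3α9 line. None of the 8 passed on the deposited scale (against 0.823% of all clusters called lower) and 3 on the quantile scale (against 4.29%). In null cells 8 of 8 were lower (against 48.1% of all clusters), with a median of -0.25. Their sums were 47341 to 50397 in the null line and 42517 to 44558 in the α3 line. None of the 8 passed on the deposited scale (against 0.351% of all clusters called lower) and 4 on the quantile scale (against 3.75%). Their part in the results on member genes was not tested.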

How the data were processed

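RNA of 8 samples, 2 arrays for each of 4 lines, was measured on exon arrays after labelling 1 µg of total RNA. The deposited values are linear intensities per transcript cluster, made with Affymetrix Expression Console and PLIER per the submitters' processing notes, while the series' text names the Exon Array Computational Tool. For versions, genome build and filters, nothing is stated in the sources at hand. Exon arrays give no read depth, and the number of arrays limits the precision. Replicate arrays held identical values in 0 clusters.

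Genes were named from the platform annotation: 14996 clusters had 1 gene, 1019 several and 7317 were unlisted. Values were tested as log2(intensity + 16) with limma 3.58.1 in R 4.3.3 over all 23332 clusters and 8 arrays, with a mean per line, 4 residual degrees of freedom and Benjamini-Hochberg adjustment within each of 5 contrasts at 0.05. In data simulated from these clusters, 86% to 94% of 4-fold and 9% to 13% of 2-fold changes were recovered in 4 contrasts between lines. In the interaction 38% and 1% were recovered. Every simulated array had the same spread and no array-wide shift, so these rates do not cover the larger residual SD of the α3α9 line. Per-array values are given for members that passed on the deposited scale and for Mki67, Top2a, Mcm2 to Mcm7, Ccne1, Ccne2, Cdk1 and Plk1, and from other lists up to 4 passing genes per direction. E2f1 and Cdt1, which rose only after quantile normalization, and Birc5's interaction, which passed only there, were added. Members that only fell, and only on that scale, have no per-array values unless in the list above. Members and lists were chosen with earlier results of these data known. Replicate numbers did not pair arrays: deviations of same-numbered arrays correlated at -0.21 to 0.07. Alternatives were quantile normalization, median centring, a common median, other pseudocounts (1, 64), a low-value filter of 25%, clusters with 1 gene, eBayes with trend or robust estimates, a replicate block, the compared lines alone and each array left out. Leaving arrays out after quantile normalization, the compared lines after it, and a crossed block were chosen after seeing the data. Promoters came from RefSeq. Figures used matplotlib 3.10.9 in Python 3.11.15.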

Additional observations from a re-analysis of the deposited data

Results flagged for a closer look

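The change of Birc5 with α3 differed between cells with and without α9 by -1.14 ± 0.15 (log2) after quantile normalization (interaction in limma, adjusted p = 0.033). Cells with and without α9 were in different array sets, which cannot be told apart from α9 here. On the deposited scale the value was -1.16 ± 0.33 with an adjusted p of 0.51. In deposited intensities Birc5 was lower on both α3α9 arrays (481 and 645) than on both α9 arrays (1183 and 1011), while its α3 arrays (1613 and 1236) overlapped its null arrays (1132 and 1317). After quantile normalization these were 527 and 505 against 1009 and 1047, and 1583 and 1408 against 1273 and 1379, with no overlap in either pair of lines. It was 1 of 50 members tested and the only one to pass, and no member passed whichever of the 8 arrays was left out.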

How the results depend on the processing

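Counts of members changed with the scale and with the spread estimate, and no named call changed direction. The number of all clusters called also changed with these settings and with the array left out. For α3 minus null, members lower (0 as reported) were 5 after quantile normalization, median centring or a common median, 2 with clusters of 1 gene and 1 with pseudocount 64, and 0 to 1 without 1 array. For α3α9 minus α9 (10) they were 30, 23 and 22 under the 3 scalings, 21 with clusters of 1 gene, 1 with pseudocount 1, 2 with the compared lines alone and 0 to 14 without 1 array. For α9 minus null (2) they were 26, 22 and 20 under the 3 scalings, 12, 0 and 5 with clusters of 1 gene and pseudocounts 1 and 64, and 0 to 7 without 1 array. Members higher (0) were 1 after quantile normalization or with the compared lines alone, 2 with clusters of 1 gene or pseudocount 64, and 0 to 2 without 1 array. For α3α9 minus α3 (15) members lower were 40, 33 and 32 under the 3 scalings, 23 without the lowest 25%, 31 with clusters of 1 gene, 2 and 24 with pseudocounts 1 and 64, and 0 to 24 without 1 array. Members higher (0) were 2, 3 and 2 under the 3 scalings, 1 with clusters of 1 gene and 2 with pseudocount 64. The interaction (0) gave 1 after quantile normalization. With the replicate number as a block, members lower were 4 for α3α9 minus α9, 0 for α9 minus null and 8 for α3α9 minus α3, and with crossed numbers 16, 7 and 26. In these contrasts 165, 158 and 193 of 23332 clusters were called lower under the block, and 295, 432 and 643 with crossed numbers. With clusters of 1 gene, 416, 517 and 613 of 14996 clusters were called lower. After quantile normalization, leaving out 1 array gave 1 to 5, 16 to 24, 10 to 26 (17 without α9 replicate 1) and 27 to 38 members lower in these 4 contrasts, 0 to 1 and 0 to 2 members higher with α9 in null and in α3 cells, and 0 for the interaction. With the compared lines alone after it, members lower were 2 for α3 minus null and 9 for α3α9 minus α9, and members higher 0 for α3α9 minus α3. Of 27 named calls 12 were kept under the block, 14 with the compared lines alone and 3 with pseudocount 1, and 0 were kept without every array in turn. The causes of these shifts were not tested. Dim rows carry little information, since 7.09% to 14.1% of values on an array lay under 16.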
